A study of Mus musculus with 12 samples.

Results

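The core genes of the circadian clock are described here in whole hearts of mice at postnatal day 8. The 10 genes Arntl, Clock, Nr1d1, Nr1d2, Per1, Per2, Per3, Cry1, Cry2 and Dbp were taken by name, and every probe that the platform annotation assigns to one of them, by its present symbol or a synonym, was kept. Of these, 8 genes had a named probe, with 9 of the 26423 probes on the array between them, and 17742 genes were named on the array in all. Per3 had a brighter and a dimmer probe, and the cryptochrome genes Cry1 and Cry2 were not named on any probe by that annotation. The study set Salvador mutant hearts (labelled Salv CKO) beside control hearts (genotype label wild-type), all of the C57bl/6 X 129 hybrid background, to find genes that depend on the Hippo pathway. Each label stood on 2 RNA samples, and each sample was hybridised to 3 technical one-colour arrays, 12 arrays in all. The sources used here do not give the Cre driver, the deleted part of the gene, whether a sample was 1 heart or a pool, or the hour at which hearts were taken.

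The mammalian clock is a feedback loop of transcription that runs in nearly every cell, heart muscle included. Arntl (also called Bmal1) and Clock are the activators: their proteins pair, bind E-box sequences and drive the Per, Cry, Nr1d1, Nr1d2 and Dbp genes. The Per and Cry proteins return to block the activator pair, and the nuclear receptors encoded by Nr1d1 and Nr1d2 (REV-ERB alpha and beta) repress Arntl, so that in adult tissue Arntl runs opposite in phase to Nr1d1, the Per genes and Dbp. Dbp encodes a factor that passes the rhythm on through D-box sequences. In the adult heart this loop is known for its hold on fuel use and ion channel genes.

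The elements through which these genes act on each other are short, and 3 promoter windows are shown because they hold an element of each kind. The sequences are from RefSeq (GRCm38.p6) and run from 250 bases before to 50 bases after an annotated gene start. Positions are counted from 1 at the start, with negative positions before it. Capitals mark each element that was found. The Per1 window (chr11:69098699-69098998, plus strand) holds an E-box at position -166 and a D-box at -24. The Per3 window (chr4:151044616-151044915, minus strand) holds a pair of D-boxes at -205 and -158. The Arntl window (chr7:113207261-113207560, plus strand) holds the core of a ROR and REV-ERB element at position 31.
Per1: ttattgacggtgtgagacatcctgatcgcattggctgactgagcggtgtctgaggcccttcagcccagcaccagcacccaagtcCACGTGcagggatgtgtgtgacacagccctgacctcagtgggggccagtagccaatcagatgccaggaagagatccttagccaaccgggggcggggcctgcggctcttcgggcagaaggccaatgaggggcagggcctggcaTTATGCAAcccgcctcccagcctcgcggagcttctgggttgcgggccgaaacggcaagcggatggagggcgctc
Per3: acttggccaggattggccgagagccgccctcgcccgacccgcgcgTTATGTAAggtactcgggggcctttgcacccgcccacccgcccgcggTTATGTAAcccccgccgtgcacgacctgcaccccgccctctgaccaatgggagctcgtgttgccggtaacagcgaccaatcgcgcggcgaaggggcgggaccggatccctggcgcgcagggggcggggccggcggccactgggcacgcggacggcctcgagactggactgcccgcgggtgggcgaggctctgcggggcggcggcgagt
Arntl: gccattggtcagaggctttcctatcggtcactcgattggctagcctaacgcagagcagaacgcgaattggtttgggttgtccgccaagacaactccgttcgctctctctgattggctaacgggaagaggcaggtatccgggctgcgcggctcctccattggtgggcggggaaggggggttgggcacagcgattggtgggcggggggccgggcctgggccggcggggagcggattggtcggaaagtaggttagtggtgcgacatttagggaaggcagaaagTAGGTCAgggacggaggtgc

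Windows were given for 9 of the 10 genes, 13 windows in all because Per1, Clock and Arntl have several starts. The letters searched, on both strands, were CACGTG for the E-box, TTATGTAA and TTATGCAA for the D-box, TAGGTCA and TGGGTCA for the ROR and REV-ERB core, and TGACGTCA for the cAMP response element. An E-box stood in windows of 2 genes, Per1 and Cry1 (at position -60 of the Cry1 window). A D-box stood in windows of 2 genes, a ROR and REV-ERB core in that of 1 gene, and the cAMP response element in those of 0 genes. Of all 32851 promoter windows of 300 bases, 7.15% held the E-box, 1.66% the D-box, 6.45% the ROR and REV-ERB core and 1.79% the cAMP response element. These matches are a description of the letters, and binding was not measured.

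All values below called levels are log2(intensity + 1) after quantile normalization, averaged over the 3 technical arrays of a sample. Levels of different probes are not compared with each other. The clock probes were well within the measured range, with deposited intensities between 196 and 3444 on single arrays, against array medians of 58 to 88 over all probes. Sav1, the targeted gene, did not follow the labels. Its level was 8.06 in Salv CKO 1 and 8.52 in Salv CKO 2, against 8.75 and 8.08 in Control 1 and 2, so samples are named by their labels only. Heart muscle markers were abundant in all 4 samples, with summed intensities of their 5 named genes between 144263 and 146081. Markers of other tissues differed between the samples. The summed intensity of 10 brown fat and adipocyte markers was 21286 and 16422 in Salv CKO 1 and 2, against 27592 and 23074 in Control 1 and 2. Of these markers 9 had a negative and 1 a positive difference, where 48.6% of all probes had a positive difference. The median was -0.72. The groups did not overlap for 7 of the markers, against 30.6% of all probes, with Lep and Elovl3 at a mean intensity of at most 16. The summed intensity of 4 named erythroid markers was 9086 and 13658, against 10992 and 5276. For 10 lung, thymus and liver markers it was 754 and 333, against 413 and 2865. In Control 2 most of this sum came from Scgb1a1, at levels of 8.14 and 4.07, against 3.68 and 11.19. Of the 10 markers, 5 were at a mean intensity of at most 16. Cd3e and Apoa2 were highest in Salv CKO 1, and Ptcra in Control 1. The 10 fibroblast and endothelial markers summed to 78630 and 84639, against 83099 and 81599. The part of these other tissues in the clock values was not tested. In a whole heart, fewer cells of a type and less RNA per cell cannot be told apart.

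Neither of the 2 activators separated the groups on every array. Arntl had levels of 8.71 and 8.58 in Salv CKO 1 and 2, against 8.17 and 8.70 in Control 1 and 2. Control 1 alone was low: 0.414 lay between it and the next sample, with no overlap of their arrays, while Salv CKO 1 and Control 2 differed by 0.0153 and their arrays overlapped. Salv CKO minus control was 0.21 ± 0.27 for Arntl (SE, limma, adjusted p = 0.998), and -0.049 without Control 1. Clock, which also has histone acetyltransferase activity, had levels of 9.93 and 10.16 in Salv CKO 1 and 2, against 9.87 and 9.91 in the controls. Its groups did not overlap by sample means, but Salv CKO 1 overlapped with both controls by arrays, and only Salv CKO 2 stood apart, by 0.228. The difference in Clock was 0.15 ± 0.22 (SE, limma, adjusted p = 0.998), and -0.027 when arrays were centred on their medians.

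Of the 9 clock probes, only that of Nr1d1 separated the labels on every array, with lower levels in Salv CKO. Its levels were 7.93 and 7.80 in Salv CKO 1 and 2, against 8.71 and 8.55 in Control 1 and 2. The deposited intensities averaged 223 and 257, against 427 and 344. All 6 arrays of the Salv CKO samples, at levels from 7.71 to 8.03, lay below all 6 arrays of the controls, at 8.47 to 8.76. These are technical arrays of 2 samples a group. By sample means the groups did not overlap for 30.6% of all probes, and the share of all probes that separated on every array is not given. The step of 0.618 between Salv CKO 1 and Control 2 was larger than the step within either group (0.135 within Salv CKO, 0.159 within control). The difference was -0.76 ± 0.22 (SE), with an unadjusted p of 0.0188 and an adjusted p of 0.998 in limma, so it did not pass the threshold over all probes. Its difference stayed between -0.87 and -0.66 in the 10 other settings that used all 4 samples, and between -0.84 and -0.69 when each sample was left out in turn. Of these 10, the replicate block, samples as a random block, the filters on dim probes and no moderation cannot change the difference. Leaving out a sample cannot turn its sign, since the groups did not overlap by sample means. The unadjusted p did not stay under 0.05: it was 0.0533 with the replicate block, 0.0996 without normalization, 0.0803 without Salv CKO 1, 0.124 without Salv CKO 2 and 0.0566 without Control 1. The smallest adjusted p in any of these settings was 0.0714, in the limma fit of all 12 arrays with the sample as a random block. That fit uses a correlation shared by all probes, so technical arrays partly count as replicates of a label and its p-values can be too small. Of the variation of Nr1d1 over the 12 arrays, 91.4% lay between the groups, 3.39% between samples of a group and 5.23% between technical arrays. The same shares over all probes are not given. The 10 brown fat and adipocyte markers had a median difference of the same sign (-0.72), and their part in the Nr1d1 values was not tested.

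**Figure D1:**
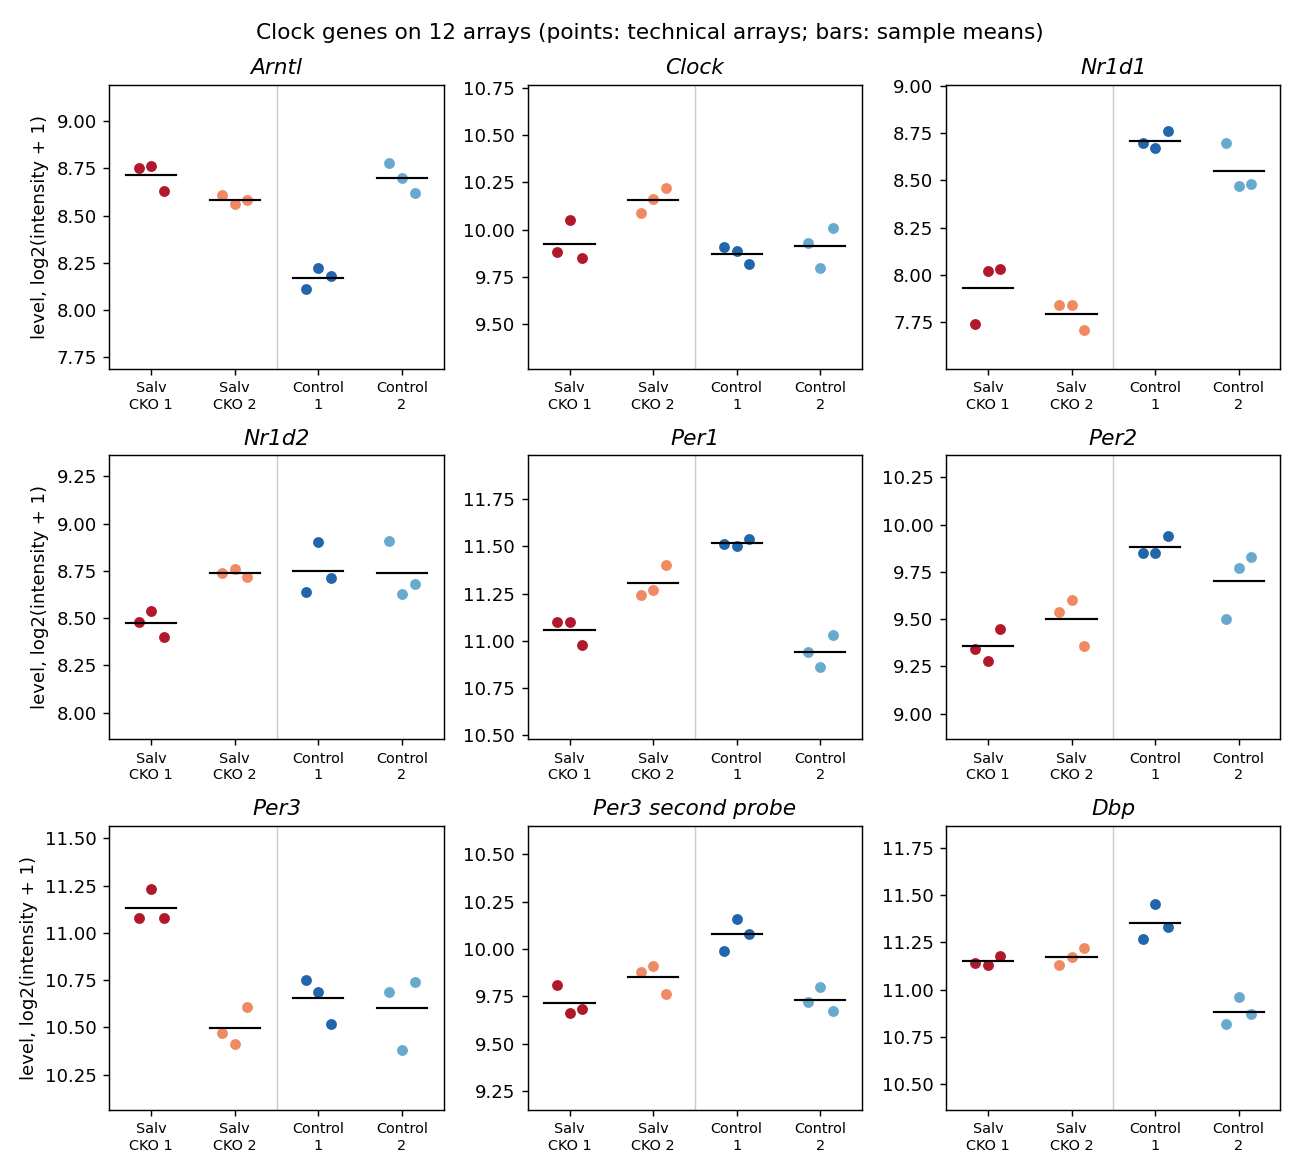
Levels (log2(intensity + 1), y axis) of the 9 clock probes on the 12 arrays, with Salv CKO 1 and 2 left of Control 1 and 2 in each panel. Points are technical arrays, horizontal bars are sample means, and every panel spans the same number of log2 units. For Nr1d1 all Salv CKO arrays (7.71 to 8.03) lie below all control arrays (8.47 to 8.76), and for Arntl only Control 1 (8.17) lies low. Per3 second probe is the dimmer probe of Per3.

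Its paralogue Nr1d2 did not show this step. Nr1d2 had levels of 8.47 and 8.74 in Salv CKO 1 and 2, against 8.75 and 8.74 in Control 1 and 2. Salv CKO 1 was low by 0.266, and the other 3 samples overlapped by arrays. The difference was -0.14 ± 0.22 (SE, limma, adjusted p = 0.998), and -0.0061 without Salv CKO 1. The difference between the effects on the 2 genes was not tested.

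The Per genes encode the repressors that bind the activator pair together with the cryptochromes. Per1 was at 11.06 and 11.30 in Salv CKO 1 and 2, against 11.52 and 10.94 in Control 1 and 2. Its 2 controls were the highest and the lowest of the 4 samples, 0.58 apart, and the Salv CKO samples lay between them. Salv CKO 1 and Control 2 were 0.117 apart and overlapped by arrays, and with median centring or without normalization Salv CKO 1 was the lowest. Salv CKO minus control was -0.051 ± 0.29 for Per1 (SE, limma, adjusted p = 1), and 0.24 without Control 1. Per2 was at 9.35 and 9.50 in Salv CKO 1 and 2, against 9.88 and 9.70 in the controls. The groups did not overlap for Per2 by sample means, while its arrays did, with 9.28 to 9.60 in Salv CKO and 9.50 to 9.94 in control. The difference in Per2 was -0.36 ± 0.22 (SE, limma, unadjusted p = 0.161, adjusted p = 0.998). It was negative in each of the other settings, from -0.53 to -0.34, and from -0.45 to -0.27 with a sample left out. Some of these settings cannot change a difference. Leaving out a sample could not turn the sign, since the groups did not overlap by sample means.

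The 2 probes of Per3 gave different sample orders. The brighter probe was at 11.13 and 10.50 in Salv CKO 1 and 2, against 10.65 and 10.61 in Control 1 and 2, so that Salv CKO 1 was high by 0.477 and the other 3 samples overlapped by arrays. This order depended on the scaling. With median centring the brighter probe was at 10.82 and 10.58, against 10.86 and 10.56, and was highest in Control 1. Without normalization it was at 10.85 and 10.74, against 10.75 and 10.47. The dimmer probe was at 9.72 and 9.85 in Salv CKO 1 and 2, against 10.08 and 9.73 in the controls, so that Control 1 was high by 0.227. Their differences between the groups were 0.18 ± 0.29 and -0.12 ± 0.24 (SE, limma, adjusted p = 0.998 each). Leaving out Salv CKO 1 gave -0.13 for the brighter probe, and leaving out Control 1 gave 0.053 for the dimmer. The sources used here do not say which transcripts the probes match, so a single direction for Per3 cannot be stated.

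Dbp, the output factor, was at 11.15 and 11.17 in Salv CKO 1 and 2, against 11.35 and 10.88 in Control 1 and 2. As for Per1, the controls were the highest and the lowest samples, 0.47 apart and without overlap of their arrays, and the 2 Salv CKO samples lay between them at nearly the same level (0.0234 apart, arrays overlapping). That closeness depended on the scaling. Salv CKO 1 and 2 were at 10.85 and 11.24 with median centring, against 11.57 and 10.82 in Control 1 and 2. Without normalization they were at 10.88 and 11.41, against 11.47 and 10.74. Salv CKO minus control was 0.046 ± 0.26 for Dbp (SE, limma, adjusted p = 1). This value was -0.15 with median centring, -0.19 without Control 2 and 0.28 without Control 1.

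Over the whole array, 0 of the 26423 probes passed an adjusted p of 0.05 in the comparison of Salv CKO with control (limma, 0% called), and 0 of the 9 clock probes did. Without adjustment, 3.97% of all probes (1048, of which 514 were higher and 534 lower in Salv CKO) had a p under 0.05, among them 1 of the 9 clock probes, that of Nr1d1. The sample means of the groups did not overlap for 4 of the 9 clock probes (Nr1d1, Nr1d2 and Per2 lower, Clock higher in Salv CKO), where 30.6% of all probes did so. Of the clock probes, 4 had a positive and 5 a negative difference, with a median of -0.051 against -0.01 over all probes. With arrays centred on their medians the split was 1 positive and 8 negative, and the median was -0.25 against -0.078 over all probes and -0.14 over the probes above the median level. With 2 samples a group, a p that misses the threshold does not show that a gene was equal in both groups.

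**Figure D2:**
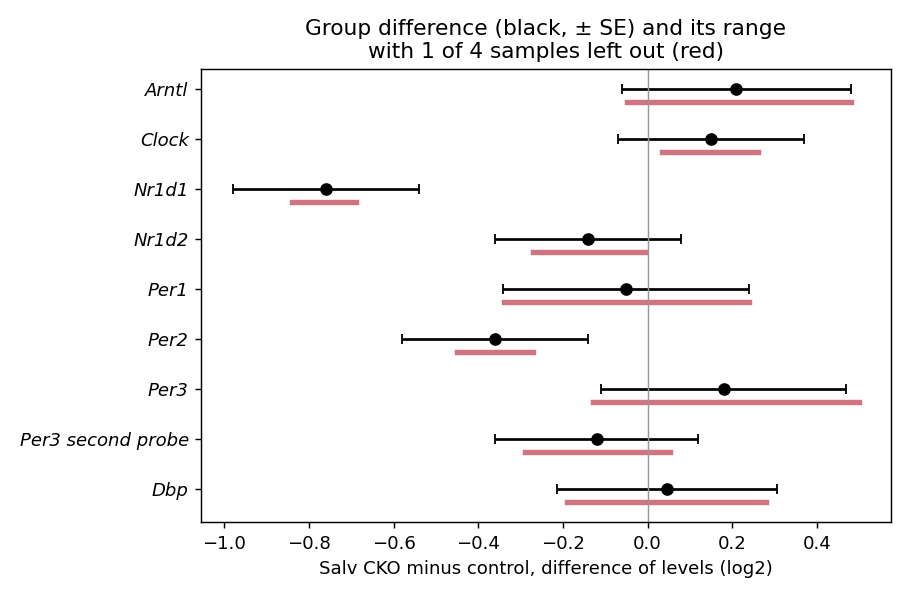
Difference of levels, Salv CKO minus control (log2, x axis), for each clock probe (y axis). Black points with bars are the limma difference ± SE from 2 samples a group, and red bars span the differences obtained when each of the 4 samples is left out in turn. Nr1d1 (-0.76) and Per2 (-0.36) stay below 0 throughout, Nr1d2 reaches -0.0061, Clock stays above 0 here, and the bars of Arntl, Per1, both Per3 probes and Dbp cross 0. For Nr1d1, Nr1d2, Per2 and Clock the groups do not overlap by sample means, so leaving out a sample cannot turn the sign.

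A separate question was whether the 4 RNA samples differed at all, beyond the spread of their technical arrays, whatever their label. A moderated F test in limma over the 12 arrays, with the samples as groups, called 8 of the 9 clock probes at an adjusted p under 0.05. It called 46.2% of all probes, and 72.9% of the 13211 probes above the median level, so such a call was common among bright probes. Nr1d1 had the smallest adjusted p of the clock probes in this F test (0.000101), followed by Arntl (0.000211), Per1 (0.000339) and Dbp (0.00147). The brighter and dimmer Per3 probes had adjusted p-values of 0.00406 and 0.00677, Per2 0.00731 and Clock 0.0416 in the same F test, and Nr1d2 did not pass (0.0696). In this F test without normalization, the brighter Per3 probe did not pass (adjusted p = 0.295) and Nr1d2 did (0.00808). Without Control 1 the test called 4 of the 9 (Nr1d1, Per1, Dbp and the brighter Per3 probe), and 24.3% of all probes. These p-values weigh samples against technical arrays and say nothing of the genotype.

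The spread over the samples differed between the clock probes. From the lowest to the highest sample, Nr1d1 spanned 0.91 on the log2 scale, which is 1.88-fold, and 14.4% of the probes above the median level spanned more. The brighter Per3 probe spanned 0.63 (1.55-fold), Per1 0.58 (1.49-fold), Arntl 0.54 (1.46-fold), Per2 0.53 (1.44-fold) and Dbp 0.47 (1.38-fold). Clock and Nr1d2 spanned 0.28 each. Of the probes above the median level, 31% spanned more than the brighter Per3 probe, 36.1% more than Per1 and 48.9% more than Dbp. For Clock and Nr1d2 these shares were 75.8% and 77%. The order of these spans depended on the scaling: with median centring Nr1d1 spanned 1.07, Per1 1.00, Per2 0.98, Dbp 0.75, Nr1d2 0.61, Clock 0.59, Arntl 0.39 and the brighter Per3 probe 0.30. Without normalization Clock spanned 0.72 and Nr1d2 0.68. Single samples carried several spans: that of Nr1d2 was 0.01 without Salv CKO 1, that of Clock 0.06 without Salv CKO 2, that of the brighter Per3 probe 0.16 without Salv CKO 1, and without Control 1 that of Arntl was 0.13, that of the dimmer Per3 probe 0.14 and that of Per1 0.36. The span of Dbp was 0.20 without Control 2 and 0.29 without Control 1, and that of Per2 was 0.35 without Control 1. Where this spread lay differed between genes. Between samples of the same group lay 92.7% of the variation of Per1, 89.2% of that of Dbp and 72.6% of that of Arntl, whereas 67% of that of Per2 lay between the groups.

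Set side by side, the gene profiles had Control 1 at an end of the order for most clock genes. Of the 7 probes of repressors and outputs (Nr1d1, Nr1d2, the Per genes and Dbp), 6 were highest in Control 1, the exception being the brighter Per3 probe. Both activators were lowest in Control 1. Over all probes, 35.8% were highest and 28.5% lowest in this sample, and the count for the activators rests on 2 probes. The 6 became 7 with median centring and 5 without normalization, and the 2 activators became 1 in both of these settings, where Clock was lowest in Salv CKO 1. For Nr1d2 and Clock the order among the controls lay within the technical spread (differences of 0.0064 and -0.04).

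The arrays of the 2 controls did not overlap for Arntl, Per1, Dbp, Per2 and the dimmer Per3 probe. They overlapped for Nr1d1, Nr1d2, Clock and the brighter Per3 probe. Control 1 minus Control 2 was -0.53 for Arntl, and 0.58 for Per1, 0.47 for Dbp, 0.35 for the dimmer Per3 probe, 0.18 for Per2 and 0.16 for Nr1d1. For the remaining probes this difference was smaller, at 0.048 for the brighter Per3 probe, 0.0064 for Nr1d2 and -0.04 for Clock. Between Salv CKO 1 and Salv CKO 2 the signs were mixed: the level in Salv CKO 1 minus that in Salv CKO 2 was 0.13 for Arntl, -0.24 for Per1, -0.023 for Dbp, -0.15 for Per2 and 0.14 for Nr1d1, and 2 of the 7 repressor and output probes were positive. The size of the control difference was not unusual. Among probes above the median level, 20.9% differed more between the controls than Per1, 24.4% more than Arntl and 29.4% more than Dbp. The median absolute difference between the controls was 0.182 over the clock probes and 0.283 over those brighter probes.

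The deviations from each gene's own mean differed between Nr1d1 on one side and Per1 and Dbp on the other, while Per2 had the sign of Nr1d1 in all 4 samples. In Control 2, Nr1d1 stood 0.30 above its own mean and Per2 0.091 above, while Per1 and Dbp stood at -0.26 each and Arntl at 0.16. In Salv CKO 2, Nr1d1 stood at -0.45, Per2 at -0.11 and the brighter Per3 probe at -0.22, whereas Per1 stood at 0.095 and Dbp at 0.035. Nr1d2 and the dimmer Per3 probe stood at 0.064 and 0.0078 there. These orders are not firm: Salv CKO 1 and 2 overlapped by arrays for Nr1d1 and Dbp, Control 1 and 2 for Nr1d1, and Salv CKO 1 and Control 2 for Per1, and with median centring Salv CKO 1 was lowest for both Nr1d1 and Per1 while Dbp was lowest in Control 2. With 4 samples no correlation between genes is given. The part of the hour of collection, which the sources used here do not give, was not tested.

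**Figure D3:**
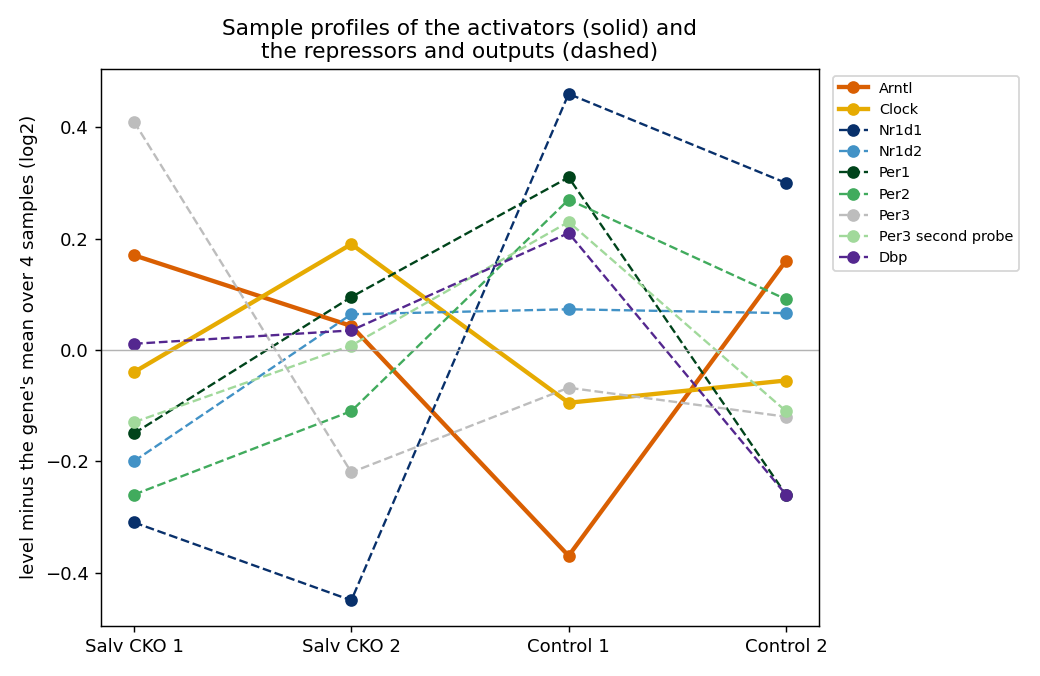
Level of each clock probe minus its own mean over the 4 samples (log2, y axis) in Salv CKO 1, Salv CKO 2, Control 1 and Control 2 (x axis), with activators as solid and repressors and outputs as dashed lines. Lines join the samples of 1 probe for the eye and do not stand for a time course. In Control 1, Arntl (-0.37) lies at the bottom and Nr1d1 (0.46), Per1 (0.31), Per2 (0.27) and Dbp (0.21) at the top, while in Control 2 Per1 and Dbp are at the bottom (-0.26 each).

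The list of other transcription factors of the loops had 10 genes with a named probe. In the comparison of Salv CKO with control 0 passed, 7 differences were positive and 3 negative, and the median was 0.15. The F test between samples called 6 of the 10, against 46.2% of all probes and 72.9% of those above the median level. These 6 were the genes of the list with a mean intensity above 16. At a mean intensity of at most 16, 4 of the genes (Arntl2, Rorb, Ciart and Bhlhe41) could not be read, and without the dimmest 50% of probes 4 differences were positive and 2 negative. Bhlhe40, which encodes the repressor DEC1 and competes for E-boxes, was at 10.97 and 11.27 in Salv CKO 1 and 2, against 11.73 and 11.40 in Control 1 and 2 (difference -0.44 ± 0.25, SE, limma, adjusted p = 0.998). Its groups did not overlap, and it was highest in Control 1. Nfil3, the repressor that opposes Dbp at D-boxes, was at 9.63 and 10.07, against 9.38 and 9.69, and was lowest in Control 1 (difference 0.31 ± 0.27, SE, limma, adjusted p = 0.998). Rora, an activator of Arntl at the elements that Nr1d1 uses, was at 9.40 and 9.32, against 8.51 and 9.63. As for Arntl, only Control 1 was low in Rora, with Control 1 minus Control 2 at -1.12. Hlf and Tef, relatives of Dbp, differed between the groups by -0.16 and 0.16. Npas2, a relative of Clock, was at 6.80 and 7.30, against 6.88 and 6.68, by its brighter probe (difference 0.27). Its dimmer probe differed by 0.90 ± 0.30 (SE, limma, unadjusted p = 0.0348, adjusted p = 0.998).

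**Figure D4:**
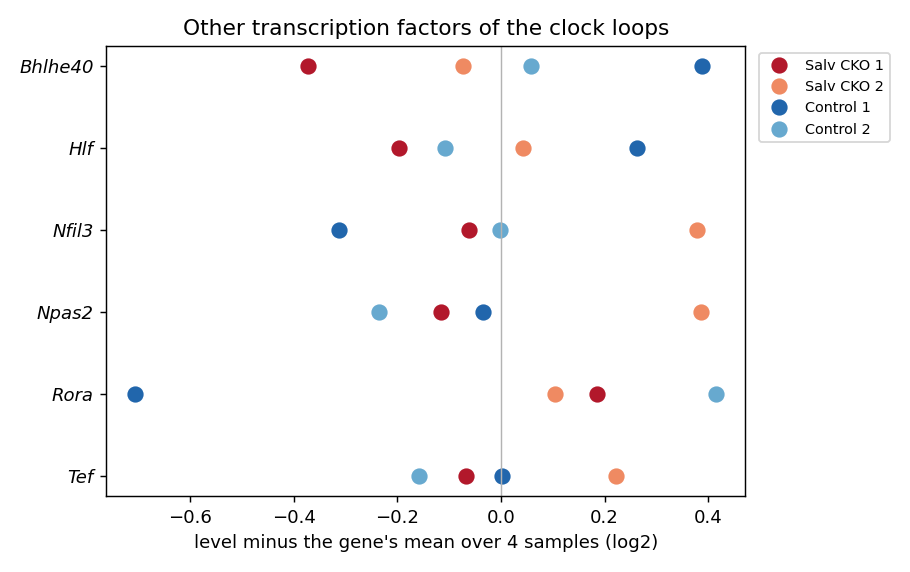
Level minus the gene's own mean over the 4 samples (log2, x axis) for 6 other clock transcription factors (y axis), with a point for each sample: Salv CKO 1 and 2 in red and orange, Control 1 and 2 in dark and light blue. Control 1 lies at the right end for Bhlhe40 and Hlf and at the left end for Nfil3 and Rora.

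Kinases and ubiquitin ligases set the stability of the Per and Cry proteins. The list had 14 genes with a named probe, with 7 positive and 7 negative differences, a median of -0.051 and 0 past the threshold. Fbxw7, a ubiquitin ligase subunit, was at 10.55 and 10.73 in Salv CKO 1 and 2, against 11.17 and 10.83 in Control 1 and 2. Usp2, a deubiquitinase whose own transcript is rhythmic, was at 9.23 and 9.31, against 9.62 and 9.43. Prkaa1, a catalytic subunit of the AMP-activated kinase, was at 8.63 and 8.78, against 9.19 and 8.78. Of the 14 genes, 6 were highest in Control 1, these 3 among them, and 4 were lowest there, against 35.8% and 28.5% of all probes. Fbxw7, Usp2 and Prkaa1 had differences of -0.36 ± 0.24, -0.25 ± 0.22 and -0.27 ± 0.25 (SE, limma, adjusted p = 0.998 each). The list's signs turned to 4 positive and 10 negative with median centring, and also without Salv CKO 2.

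All 17 genes of the list of clock-controlled outputs had a named probe, with 5 positive and 12 negative differences, a median of -0.08 and 0 past the threshold. These counts were 8 and 9 without normalization, and 3 and 14 with median centring. The F test between samples called 12 of the 17, against 46.2% of all probes and 72.9% of those above the median level. Nampt, the enzyme of the NAD salvage route and a target of the activator pair, was at 10.13 in each Salv CKO sample, against 9.44 and 9.92 in Control 1 and 2 (difference 0.45 ± 0.26, SE, limma, adjusted p = 0.998). Kcnip2, the potassium channel subunit KChIP2, was at 9.50 and 9.28, against 6.94 and 9.18. Its difference of 1.33 ± 0.77 (SE, limma, adjusted p = 0.998) came with Control 1 minus Control 2 at -2.24. Noct (nocturnin) was at 10.02 and 10.52, against 10.63 and 10.71 (difference -0.40 ± 0.26, SE, limma, adjusted p = 0.998). The dimmer probes of Nampt and Noct differed by 0.18 and -0.56.

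Per1 and Per2 also respond to glucocorticoids, to cAMP signalling through CREB and to temperature, so lists of genes with those responses are given beside them. Of 11 glucocorticoid response genes, Per1 itself among them, 3 differences were positive and 8 negative (median -0.085), and without Salv CKO 1 these were 5 and 6. Tsc22d3 (GILZ), a classical glucocorticoid target, was at 11.38 and 11.56 in Salv CKO 1 and 2, against 12.18 and 11.60 in Control 1 and 2, and Fkbp5 at 7.01 and 7.34, against 7.69 and 7.35. Both were highest in Control 1, as were 6 of the 11 genes (Per1 included) and 35.8% of all probes, while Ddit4 (10.44 and 10.52, against 10.35 and 9.84) was not. Of 11 CREB and immediate early genes, 2 were positive and 9 negative (median -0.11). Sik1, a kinase induced by CREB that restrains light responses of the clock, was at 8.07 and 9.12, against 9.91 and 8.63. Fosb was at 6.61 and 8.47, against 8.26 and 8.84, with Salv CKO 1 low, and Crem was at 8.89 and 9.21, against 9.41 and 9.30, by its brightest probe (difference -0.30). Of its 3 dimmer probes, 2 were at a mean intensity of at most 16 and could not be read, and the other differed by 0.87. Of 7 named temperature response genes out of 10, 3 were positive and 4 negative (median -0.085). The heat shock genes Hsph1 (7.83 and 8.11, against 8.51 and 8.36), Hspb1 (9.73 and 9.78, against 10.34 and 10.04) and Hspa1a (5.77 and 6.44, against 6.44 and 6.74) had the smallest p there. None of the genes in these 3 lists passed the threshold in the comparison of Salv CKO with control (limma, adjusted p at least 0.998 for those named), and the part of these inputs in the clock values was not tested.

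Many genes outside the clock had the same profiles over the 4 samples. Among 11596 named probes above the median level, likeness was measured as the root mean square difference of levels after each gene was centred on its own mean. Closest to Arntl were Rfc3 (0.00794), Trps1 (0.009) and Pdlim1 (0.0116), and 549 probes lay within 0.1 of it. Closest to Dbp were Cenpu (0.00987), Habp4 (0.0116) and Fam131a (0.0162), with 820 probes within 0.1, and closest to its mirror image were Uri1 (0.0112), Cdca7l (0.0138) and Cartpt (0.0182), with 485. Nr1d1 had fewer such neighbours, Ahrr (0.0427), 4933406K04Rik (0.0469) and Apol10b (0.0499) being the closest of 8 probes within 0.1. The limit of 0.1 was not scaled to the span of a gene, which was 0.91 for Nr1d1, 0.54 for Arntl and 0.47 for Dbp. A wider span leaves fewer probes within it, so these counts do not compare how rare the profiles were. Over 4 samples such likeness is a description.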

How the data were processed

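RNA of 4 whole-heart samples (2 labelled Salv CKO, 2 labelled Control) was hybridised in Cy5 to 12 one-colour arrays, 3 technical arrays a sample, per the labels. The authors deposited whole-number intensities from -10 to 65474 for 26423 probes. The sources used here name no scanner, background correction or normalization.

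Here, the deposited intensities were quantile normalized, negative values were raised to 0.0833, the lowest positive value, log2(intensity + 1) was taken, and technical arrays were averaged. Salv CKO was compared with control in limma (version 3.58.1, R 4.3.3), 2 samples against 2, with Benjamini-Hochberg adjustment over all probes and a threshold of 0.05. A limma F test over 12 arrays compared the 4 samples. p-values of the group comparison weigh a difference against the spread between these samples, which the labels call biological replicates. In limma the spread of a probe is moderated by that of all probes (2 residual and 2.6 prior degrees of freedom). Both fits were tested on simulated data.

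Probes were named from the platform annotation (20377 with 1 symbol, 0 with several, 6046 with none), and older symbols were brought up to date with RefSeq's GRCm38.p6 table (18213 by symbol, 2126 by synonym, 38 unmatched). A gene with several probes is led by the brightest. The named genes were all members, the 3 genes of each other clock list with the smallest p, and the 3 nearest profiles of Nr1d1, Dbp and Arntl. Ciart, picked by this rule, was too dim to give. Hlf, Tef, Rora and Npas2 were named after their values were seen.

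The members and lists were chosen with earlier results of these data known. The count of probes at an end of the order in Control 1 was chosen after seeing the data. Samples with the same number did not deviate together (correlation -0.253 over probes), so the numbers were not taken as pairs. Alternatives were a replicate block, technical arrays summarised by their median, samples as a random block, median centring, no normalization, pseudocounts of 16 and 50, filters on dim probes, no moderation, the mean over probes, and each sample left out.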

Additional observations from a re-analysis of the deposited data

How the results depend on the processing

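For the comparison of Salv CKO with control, the limma count was 0 probes (1048 at an unadjusted p under 0.05). It became 61 (34 positive and 27 negative) when samples were a random block over 12 arrays, where technical arrays partly count as replicates. With median centring it was 2. Without normalization it was 14 (10 positive and 4 negative), and this moved the median difference of all probes to 0.11. It stayed at 0 with the replicate block (743 unadjusted), with the crossed pairing added after seeing the data (1545 unadjusted), and in the other settings. In none of them was a clock probe called. The F test count of 12205 ran from 6421 to 10851 with a sample left out, the lowest without Control 1. The number of clock probes with a positive difference, 4, was 1 with median centring, and ran from 3 to 5 with a sample left out. The number of activators lowest in Control 1, 2, was 1 with median centring and 1 without normalization. Signs turned with median centring for the brighter Per3 probe (-0.0066), Clock (-0.027) and Dbp (-0.15). With a sample left out, Per1 ran from -0.34 to 0.24, the brighter Per3 probe from -0.13 to 0.50, the dimmer from -0.29 to 0.053, Arntl from -0.049 to 0.48 and Dbp from -0.19 to 0.28. Nr1d1, Nr1d2 and Per2 kept a negative sign in all settings run. With a sample left out this sign could not turn, since their groups did not overlap by sample means. The replicate block, the random block, the filters on dim probes and no moderation leave the difference of a probe unchanged by design. The cause of the changes between settings was not tested. Of the values for single clock probes and other lists, 9 changed sign, 40 moved and 225 did neither over these settings. The 225 include differences that could not change by design, so this count is no measure of stability. For the CREB and immediate early genes the number of positive differences ran from 1 to 6 of 11, and for the glucocorticoid response genes from 2 to 5 of 11, with a sample left out. The number of samples limits the group comparison.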
